A study of Homo sapiens with 9 samples.

Results

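The transcription factors that drive epithelial-mesenchymal transition (EMT), and the factors that hold cells in the epithelial state, were followed by RNA sequencing in HCT-15 cells, as labelled, and in tolerant lines grown from them. The members were chosen by name: 6 EMT-driving factors (SNAI1, SNAI2, ZEB1, ZEB2, TWIST1 and TWIST2) and 4 epithelial factors (GRHL2, OVOL1, ESRP1 and ELF3), 10 genes of the 36018 in the count tables once Ensembl identifiers were matched to symbols. Of these, 9 were found, and GRHL2 was not analysed here. HCT-15 is an established human colorectal adenocarcinoma cell line, of wild-type genotype per the labels. The CoCl2-tolerant group (3 libraries) was derived by growing the cells in increasing concentrations of cobalt chloride, a salt used to mimic hypoxia because it stabilises hypoxia-inducible factors. The low-glucose-tolerant group (3 libraries) was derived in the same way under low glucose. The control group (3 libraries) received no treatment. All groups shared the parental line and the RPMI 1640 medium with fetal bovine serum. The labels do not say whether a tolerant line was 1 clone, nor whether replicates were separate cultures, so p-values here reflect library-to-library spread alone, and that spread may be technical.

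In EMT, epithelial cells lose cell-cell junctions and gain migratory, mesenchymal traits. The SNAIL (SNAI1, SNAI2), ZEB and TWIST families drive this programme. SNAIL and ZEB proteins are zinc-finger repressors that bind E-box sequences in the promoters of epithelial genes such as E-cadherin (CDH1), whereas TWIST proteins are basic helix-loop-helix factors that bind E-boxes as dimers, often with E proteins. GRHL2, OVOL1 and ELF3 maintain epithelial genes, and GRHL and OVOL factors repress ZEB genes. ESRP1 is a splicing regulator, not a transcription factor, and it directs epithelial isoforms of transcripts such as FGFR2 and CD44. In colorectal cancer, EMT factors are linked to invasion and ELF3 is a factor of the normal intestinal epithelium.

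Library depth was 25178615 to 32674687 counts, so that 3 counts were worth 0.0918 to 0.119 CPM (counts per 1000000) of the unscaled library total. All other CPM are given with libraries scaled by trimmed means of M values. The labelled cell type was checked against intestinal markers, and most were absent: of 14 found, 11 were under 1 CPM in all 9 libraries, which goes against the label, so the cells are called by their group below. The intestinal master regulator CDX2 had summed counts of 0 in CoCl2-tolerant, 1 in low-glucose-tolerant and 0 in control libraries. Summed over the 14 markers, the level was 21.3 to 25.3 CPM in CoCl2-tolerant, 40.4 to 68.3 CPM in low-glucose-tolerant and 54.9 to 61.4 CPM in control libraries, nearly all of it from EPCAM. Of 9 fibroblast markers, PDGFRA, DCN, LUM and FAP were under 1 CPM in all libraries, whereas COL1A1 and THY1 were abundant, and the list summed to 644 to 750 CPM in CoCl2-tolerant, 156 to 196 CPM in low-glucose-tolerant and 2491 to 2533 CPM in control libraries. The 8 leukocyte markers summed to at most 3.08 CPM and the 7 endothelial markers to at most 2.56 CPM in any library. These lists moved with the groups, and their part in the results below was not tested. In bulk RNA, fewer cells of a type and less RNA per cell cannot be told apart. On the second principal component, low-glucose-tolerant replicate 2 lay at -19.95, against -0.73 and 1.59 for the other low-glucose-tolerant libraries. Leaving it out ended none of the members' calls.

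Of the 9 members found, 7 passed the filter on low counts and were tested. TWIST1 and OVOL1 did not pass, and ESRP1 passed only through the low-glucose-tolerant group. Higher values of ESRP1 in that group could therefore hardly go otherwise. The counts below of calls, of 2-fold changes and of libraries that did not overlap include ESRP1 wherever that group is compared. With edgeR's quasi-likelihood test and a Benjamini-Hochberg adjusted p under 0.05 over 17902 genes, 3 of the 7 changed in CoCl2-tolerant cells against control, where 36.1% of all genes tested did. In low-glucose-tolerant cells 6 of 7 changed against control, where 69.2% of all genes did, and all 7 differed between CoCl2-tolerant and low-glucose-tolerant cells, where 63.9% of all genes did. By direction, 1 rose and 2 fell in CoCl2-tolerant cells (17.9% and 18.2% of all genes tested), 2 rose and 4 fell in low-glucose-tolerant cells (34.6% each way), and 5 were higher and 2 lower in CoCl2-tolerant than in low-glucose-tolerant cells (31.9% and 32.0%). With 7 members tested, these counts do not set the members apart from other genes. A called change of at least 2-fold was seen in CoCl2-tolerant cells for SNAI1 and ELF3 (11.1% of all genes tested), in low-glucose-tolerant cells for SNAI1, TWIST2, ESRP1 and ELF3 (36.7%), and between the tolerant lines for ESRP1 (31.5%, and 10.1% at 4-fold or more). The libraries did not overlap for 5 of 7 members between CoCl2-tolerant and control (57.2% of all genes), for 6 of 7 between low-glucose-tolerant and control (73.3%) and for 7 of 7 between the tolerant lines (63.1%). Both comparisons against control use the same 3 control libraries, so their values are given side by side. SNAI1 and ELF3 were lower in both tolerant groups, SNAI2 rose in CoCl2-tolerant cells, ZEB1 and ZEB2 fell in low-glucose-tolerant cells, and TWIST2 and ESRP1 rose in low-glucose-tolerant cells.

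**Figure D1:**
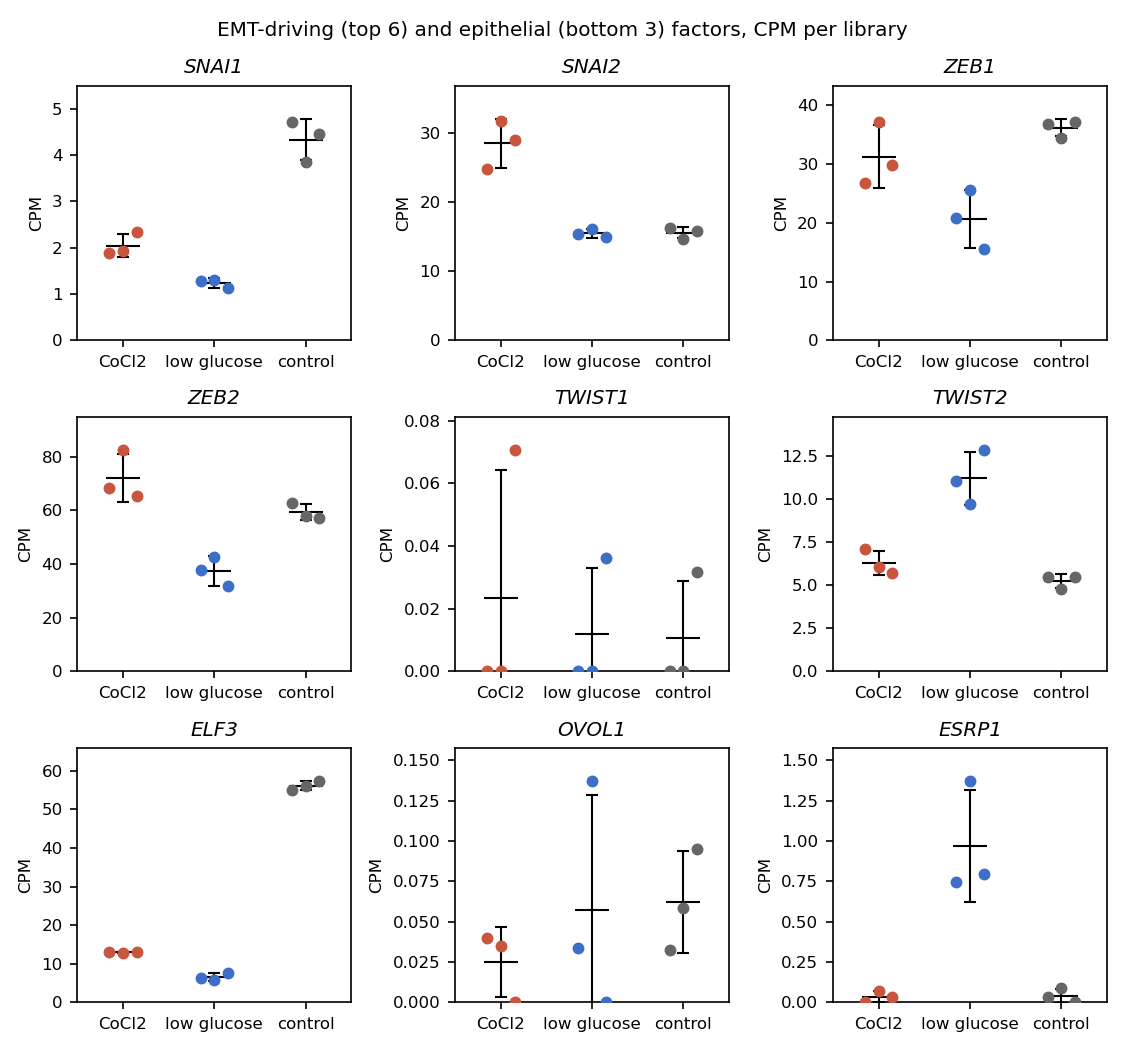
Expression of the 9 members found, in CPM on the vertical axis (each panel has its own linear scale from 0), in CoCl2-tolerant, low-glucose-tolerant and control libraries. Points are libraries, the horizontal line is the mean and the bars are 1 SD either side (n = 3, cut at 0). ELF3 lies at 13.0 ± 0.2 and 6.59 ± 0.92 CPM in the tolerant groups and at 56.2 ± 1.1 CPM in control, while TWIST1 and OVOL1 stay near 0 in all groups.

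Promoter sequences are shown for the 4 of the 10 members that matched the RefSeq promoter table (GRCh38.p14). The other members, SNAI1 and ESRP1 among them, did not match, so the choice does not follow the size of change. The sequences run from 250 bases before to 50 bases after a transcript start, 5′ to 3′ on the gene's strand. ELF3 had the largest fall of the members, ZEB1 and ZEB2 both fell in low-glucose-tolerant cells, and TWIST2 rose there. Of the 7 ZEB1 windows, the 1 with the most E-boxes is shown. Capitals mark the E-box CACCTG, or its reverse complement CAGGTG, which the SNAIL and ZEB proteins are known to bind.
ELF3 (chr1:202010337-202010636, + strand): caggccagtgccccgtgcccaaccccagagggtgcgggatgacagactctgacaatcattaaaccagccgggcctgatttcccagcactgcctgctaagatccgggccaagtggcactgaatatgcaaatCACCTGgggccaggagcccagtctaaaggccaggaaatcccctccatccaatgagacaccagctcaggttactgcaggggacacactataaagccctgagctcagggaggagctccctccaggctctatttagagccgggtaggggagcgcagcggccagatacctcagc
ZEB1, window 3 of 7 (chr10:31318966-31319265, + strand): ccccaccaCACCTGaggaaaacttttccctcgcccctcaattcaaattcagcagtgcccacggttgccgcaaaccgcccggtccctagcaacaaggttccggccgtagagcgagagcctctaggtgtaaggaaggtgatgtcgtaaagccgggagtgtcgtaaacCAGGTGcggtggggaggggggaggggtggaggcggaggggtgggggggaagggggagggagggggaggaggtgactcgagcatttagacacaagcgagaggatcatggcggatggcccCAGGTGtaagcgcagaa
ZEB2 (chr2:144520070-144520369, - strand): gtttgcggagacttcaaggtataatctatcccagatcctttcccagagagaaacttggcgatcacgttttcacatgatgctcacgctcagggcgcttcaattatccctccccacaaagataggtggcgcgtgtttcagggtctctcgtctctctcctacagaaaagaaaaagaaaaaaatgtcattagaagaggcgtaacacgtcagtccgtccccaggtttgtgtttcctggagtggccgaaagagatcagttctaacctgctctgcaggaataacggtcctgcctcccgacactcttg
TWIST2 (chr2:238847835-238848134, + strand): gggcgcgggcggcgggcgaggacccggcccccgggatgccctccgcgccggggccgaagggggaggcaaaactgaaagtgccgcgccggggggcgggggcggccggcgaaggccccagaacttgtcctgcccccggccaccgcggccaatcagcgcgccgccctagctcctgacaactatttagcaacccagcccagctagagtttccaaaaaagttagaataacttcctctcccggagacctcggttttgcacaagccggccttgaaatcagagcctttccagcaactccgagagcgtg
The ELF3 window held 1 such E-box, 120 bases before the start. The ZEB1 window held 3, beginning 242 and 85 bases before and 33 bases after the start, and of the other 6 ZEB1 windows 1 held 1 more, 57 bases before its start. The ZEB2 and TWIST2 windows held none. On both strands together, 7231 of 35116 windows (20.6%) held the motif. The core ACGTG of the hypoxia response element (reverse complement CACGT), the sequence that hypoxia-inducible factors bind, was found at 2 places in the ZEB2 window, 188 and 51 bases before the start, and in none of the other windows shown. Among the ZEB1 windows not shown it was at 2 places in window 6, 250 and 127 bases before that start, and 7518 of 35116 windows (21.4%) held it. The searched motifs did not overlap in these windows. A match describes the letters of the window and is not evidence of binding.

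ELF3, an ETS-family factor of epithelial cells (chromosome 1, 202007945 to 202017188, + strand, GRCh38), was the member with the largest fall. It had 13.0, 12.8 and 13.2 CPM in CoCl2-tolerant libraries and 6.39, 5.79 and 7.60 CPM in low-glucose-tolerant libraries, against 55.1, 56.1 and 57.3 CPM in control libraries. The 3 groups did not overlap. ELF3 was 4.33-fold lower in CoCl2-tolerant cells than in control (log2 fold change -2.11, SE 0.12, adjusted p = 1.9e-08) and 8.52-fold lower in low-glucose-tolerant cells (log2 fold change -3.09, SE 0.12, adjusted p = 8.87e-11). Among all genes tested, 2.01% changed at least 4-fold in CoCl2-tolerant cells and 12.2% did in low-glucose-tolerant cells. Between the tolerant lines, ELF3 was 1.97-fold higher in CoCl2-tolerant than in low-glucose-tolerant cells (log2 fold change 0.98, SE 0.12, adjusted p = 8.44e-06). Of its exon bases, 18.5% overlap other annotated genes, including ELF3-AS1 on the opposite strand, and the counting is not stated to use strand, so reads of the pair cannot be told apart there. ELF3-AS1, chosen after its values were seen, had 5.70 ± 0.74 CPM in CoCl2-tolerant, 1.18 ± 0.06 CPM in low-glucose-tolerant and 6.93 ± 0.57 CPM in control libraries (SD, n = 3 each). The antisense gene fell in low-glucose-tolerant cells (log2 fold change -2.55, adjusted p = 9.76e-09) and did not pass the test in CoCl2-tolerant cells (log2 fold change -0.28, adjusted p = 0.143).

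ESRP1 was close to absent outside the low-glucose-tolerant group. Its counts were 0, 2 and 1 in CoCl2-tolerant libraries and 22, 40 and 22 in low-glucose-tolerant libraries, against 1, 3 and 0 in control libraries. All low-glucose-tolerant libraries lay above every other library. After scaling, the summed counts were 23.4 times as high in low-glucose-tolerant as in control libraries (95% exact interval 8.82 to 88.0, counting error only), with an adjusted p of 1.49e-05. Summed counts in CoCl2-tolerant libraries were 0.0377 times those in low-glucose-tolerant libraries (0.00761 to 0.114, adjusted p = 2.59e-05). CoCl2-tolerant and control libraries, with 3 and 4 counts in all, did not differ detectably at this depth (ratio 0.883, 0.129 to 5.22). Since ESRP1 passed the filter only through the group in which it was high, its call there could hardly go otherwise. Even in that group the level was only 0.971 ± 0.347 CPM (SD, n = 3).

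OVOL1, a zinc-finger factor of epithelial differentiation (chromosome 11, 65787022 to 65797219, + strand), had 1, 1 and 0 counts in CoCl2-tolerant libraries, 1, 4 and 0 in low-glucose-tolerant libraries and 1, 2 and 3 in control libraries. No difference was detectable at this depth: the ratio of summed counts was 0.392 for CoCl2-tolerant over control libraries (95% exact interval 0.0387 to 2.19) and 0.930 for low-glucose-tolerant over control libraries (0.225 to 3.66). Of its exon bases, 27.1% overlap AP001266.1 on the opposite strand. Among the epithelial members, ELF3 thus had more than a few counts in every group, and ESRP1 and OVOL1 did not.

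SNAI1, which encodes the repressor Snail (chromosome 20, 49982999 to 49988886, + strand), was low and fell further in both tolerant lines. It had 1.89, 1.93 and 2.33 CPM in CoCl2-tolerant libraries and 1.29, 1.30 and 1.12 CPM in low-glucose-tolerant libraries, against 4.71, 3.85 and 4.45 CPM in control libraries. The 3 groups did not overlap. SNAI1 was 2.12-fold lower in CoCl2-tolerant cells than in control (log2 fold change -1.08, SE 0.17, adjusted p = 0.000267) and 3.50-fold lower in low-glucose-tolerant cells (log2 fold change -1.80, SE 0.18, adjusted p = 7.08e-07). Its level was 1.65-fold higher in CoCl2-tolerant than in low-glucose-tolerant cells (log2 fold change 0.72, SE 0.19, adjusted p = 0.00476).

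SNAI2, which encodes the related repressor Slug, went the other way in CoCl2-tolerant cells. It had 24.7, 31.7 and 28.9 CPM in CoCl2-tolerant libraries and 15.3, 16.1 and 14.9 CPM in low-glucose-tolerant libraries, against 16.2, 14.6 and 15.9 CPM in control libraries. Every CoCl2-tolerant library was above every other library, and the low-glucose-tolerant and control ranges overlapped. SNAI2 was 1.83-fold higher in CoCl2-tolerant cells than in control (log2 fold change 0.87, SE 0.12, adjusted p = 7.55e-05). In low-glucose-tolerant cells it did not differ detectably from control (log2 fold change -0.01, SE 0.12, adjusted p = 0.942). The tolerant lines differed by 1.84-fold, with CoCl2-tolerant cells higher than low-glucose-tolerant cells (log2 fold change 0.88, SE 0.12, adjusted p = 1.78e-05).

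ZEB1 (chromosome 10, 31318495 to 31529814, + strand) encodes a zinc-finger homeobox repressor that is in mutual repression with the miR-200 family. It had 26.7, 37.1 and 29.7 CPM in CoCl2-tolerant libraries and 20.7, 25.5 and 15.6 CPM in low-glucose-tolerant libraries, against 36.8, 34.4 and 37.1 CPM in control libraries. CoCl2-tolerant and control libraries overlapped, and all low-glucose-tolerant libraries lay below both. ZEB1 was 1.75-fold lower in low-glucose-tolerant cells than in control (log2 fold change -0.81, SE 0.16, adjusted p = 0.000536). In CoCl2-tolerant cells the log2 fold change against control was -0.21 (SE 0.16, adjusted p = 0.334), which did not pass. ZEB1 was higher in CoCl2-tolerant than in low-glucose-tolerant cells (log2 fold change 0.60, SE 0.17, adjusted p = 0.00565).

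ZEB2 (chromosome 2, 144364364 to 144524583, - strand), the paralog of ZEB1, was likewise lowest in low-glucose-tolerant cells. It had 68.3, 82.4 and 65.5 CPM in CoCl2-tolerant libraries and 37.9, 42.7 and 31.8 CPM in low-glucose-tolerant libraries, against 62.6, 58.1 and 57.1 CPM in control libraries. None of the groups overlapped. ZEB2 was 1.58-fold lower in low-glucose-tolerant cells than in control (log2 fold change -0.66, SE 0.13, adjusted p = 0.000365) and 1.92-fold higher in CoCl2-tolerant than in low-glucose-tolerant cells (log2 fold change 0.94, SE 0.13, adjusted p = 1.91e-05). In CoCl2-tolerant cells it did not pass against control (log2 fold change 0.28, SE 0.13, adjusted p = 0.0976), although the libraries did not overlap. That adjusted p fell to 0.0446 without low-glucose-tolerant replicate 2 and to 0.0243 in a fit of only the CoCl2-tolerant and control groups, where the log2 fold change was again 0.28. The antisense transcript ZEB1-AS1 had 2.66 ± 0.55 CPM in CoCl2-tolerant, 2.54 ± 0.72 CPM in low-glucose-tolerant and 3.09 ± 0.13 CPM in control libraries and did not pass in any comparison (adjusted p of 0.258 to 0.792). Without low-glucose-tolerant replicate 1 its log2 fold change against control was -0.52 (adjusted p = 0.0393). ZEB2-AS1 had summed counts of 13 in CoCl2-tolerant, 3 in low-glucose-tolerant and 12 in control libraries and was under the filter, with 50.4% of its exon bases overlapped by other genes, ZEB2 on the opposite strand among them. Of 6 listed antisense and miRNA host genes, 5 were found and 2 tested. The other tested gene, SNAI3-AS1, fell in low-glucose-tolerant cells (log2 fold change -0.43, adjusted p = 0.0468), a call lost in most of the alternatives run. The miR-200c host gene MIR200CHG was not analysed here.

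TWIST2 (chromosome 2, 238848032 to 238910543, + strand), a basic helix-loop-helix repressor of mesenchymal tissues, was the EMT-driving member that rose in low-glucose-tolerant cells. It had 7.10, 6.06 and 5.72 CPM in CoCl2-tolerant libraries and 11.04, 9.73 and 12.9 CPM in low-glucose-tolerant libraries, against 5.46, 4.79 and 5.49 CPM in control libraries. All low-glucose-tolerant libraries lay above every other library, and the CoCl2-tolerant libraries lay just above the control libraries. TWIST2 was 2.14-fold higher in low-glucose-tolerant cells than in control (log2 fold change 1.09, SE 0.15, adjusted p = 1.12e-05). In CoCl2-tolerant cells the log2 fold change was 0.26 against control (SE 0.15, adjusted p = 0.188), which did not pass, and -0.83 against low-glucose-tolerant cells (SE 0.14, adjusted p = 0.00017). Its paralog TWIST1 (chromosome 7, 19020991 to 19117672, - strand) had 0, 0 and 2 counts in CoCl2-tolerant libraries, 0, 0 and 1 in low-glucose-tolerant libraries and 0, 0 and 1 in control libraries, so no comparison was possible at this depth. The TWIST proteins act mainly as dimers with E proteins, which the ID proteins sequester. Of 7 listed genes for E proteins and ID inhibitors, 6 were tested. Against control, 2 rose and 2 fell in CoCl2-tolerant cells (17.9% and 18.2% of all genes tested). In low-glucose-tolerant cells 0 rose and 4 fell (34.6% of all genes each way). The median log2 fold changes were -0.11 in CoCl2-tolerant and -0.67 in low-glucose-tolerant cells (0.01 and -0.01 over all genes tested).

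Among those partners, the E protein gene TCF3 had 126 ± 4.9 CPM in CoCl2-tolerant, 144 ± 7.1 CPM in low-glucose-tolerant and 143 ± 4.1 CPM in control libraries and passed in none of the comparisons. Without low-glucose-tolerant replicate 1, its log2 fold change of CoCl2-tolerant against low-glucose-tolerant cells was -0.24 (adjusted p = 0.0446), and in a fit of only CoCl2-tolerant and control libraries its log2 fold change was -0.18 (adjusted p = 0.0409). TCF4 fell 1.83-fold in CoCl2-tolerant cells (log2 fold change -0.87, adjusted p = 0.00136) and 1.84-fold in low-glucose-tolerant cells (-0.88, adjusted p = 0.000342). The inhibitor gene ID1 had 52.4 ± 5.1 CPM in CoCl2-tolerant, 12.2 ± 2.3 CPM in low-glucose-tolerant and 53.3 ± 2.1 CPM in control libraries. ID1 fell 4.38-fold in low-glucose-tolerant cells (log2 fold change -2.13, SE 0.14, adjusted p = 9.52e-09) and did not pass in CoCl2-tolerant cells (log2 fold change -0.03, adjusted p = 0.897). ID2 rose in CoCl2-tolerant cells (log2 fold change 0.65, adjusted p = 0.000597) and fell in low-glucose-tolerant cells (-1.05, adjusted p = 2.04e-06). ID3 had 22.8 ± 2.4 CPM in CoCl2-tolerant, 14.1 ± 3.9 CPM in low-glucose-tolerant and 12.7 ± 1.3 CPM in control libraries, and it rose in CoCl2-tolerant cells (log2 fold change 0.84, adjusted p = 0.00206). In low-glucose-tolerant cells its log2 fold change of 0.15 had an adjusted p of 0.465, and of 0.0356 without low-glucose-tolerant replicate 2 (log2 fold change 0.35).

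**Figure D2:**
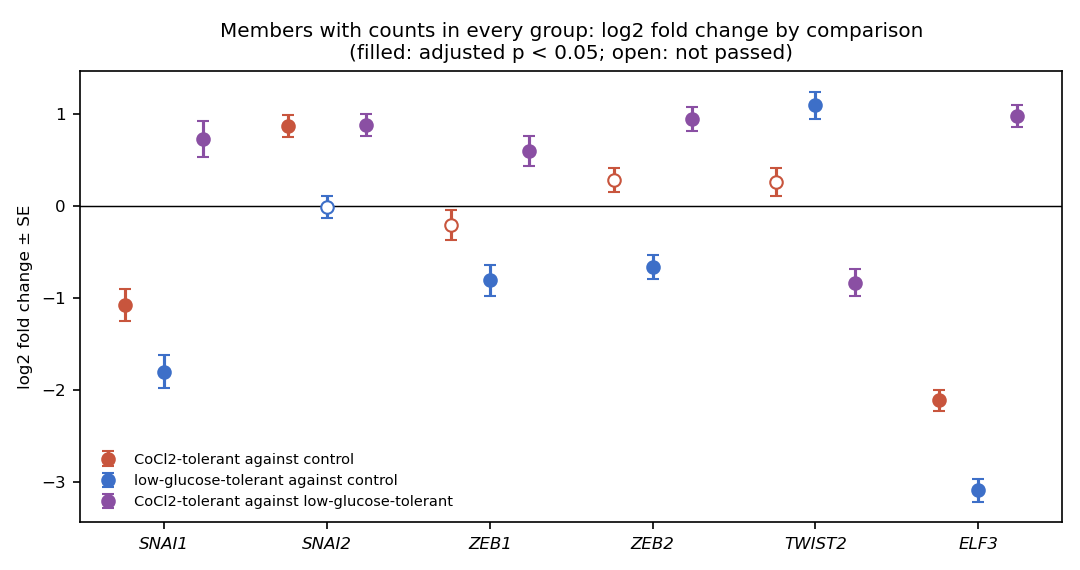
Log2 fold change (vertical axis) of the 6 members with more than a few counts in every group, for each tolerant line against control and for CoCl2-tolerant against low-glucose-tolerant cells. Points are edgeR estimates, bars are 1 SE either side, and filled points passed an adjusted p of 0.05. The ELF3 estimates against control lie lowest at -2.11 and -3.09, and SNAI2 (0.87) and TWIST2 (1.09) are the only points above 0 that passed against control.

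Summed over the EMT-driving members, the level was 129, 159 and 132 CPM in CoCl2-tolerant libraries and 86.2, 95.4 and 76.3 CPM in low-glucose-tolerant libraries, against 126, 116 and 120 CPM in control libraries. Over the epithelial members found, the sums were 13.0, 12.9 and 13.2 CPM in CoCl2-tolerant libraries and 7.17, 7.30 and 8.40 CPM in low-glucose-tolerant libraries, against 55.2, 56.2 and 57.4 CPM in control libraries, most of it from ELF3. The sums give most weight to long and abundant transcripts such as ZEB2. Low-glucose-tolerant cells were lower than control in both sums, and CoCl2-tolerant cells were lower than control in the epithelial sum. In the EMT-driving sum CoCl2-tolerant libraries lay above control libraries, by a small margin at the edge (129 against 126 CPM). Libraries of 57.2% of all genes tested did not overlap in that comparison. Of the 5 EMT-driving members tested there, 1 was called higher and 1 lower, so the sum does not describe a shared rise.

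Levels were also compared between members, in CPM per kilobase of the longest annotated transcript. In CoCl2-tolerant libraries the order was SNAI2 (10.1 ± 1.2), ZEB2 (7.52 ± 0.94), ZEB1 (4.98 ± 0.85), TWIST2 (4.48 ± 0.51), ELF3 (2.60 ± 0.04) and SNAI1 (1.21 ± 0.15). In low-glucose-tolerant libraries it was TWIST2 (7.98 ± 1.11), SNAI2 (5.46 ± 0.21), ZEB2 (3.91 ± 0.57), ZEB1 (3.29 ± 0.80), ELF3 (1.32 ± 0.18), SNAI1 (0.735 ± 0.060) and ESRP1 (0.255). In control libraries it was ELF3 (11.3 ± 0.2), ZEB2 (6.18 ± 0.31), ZEB1 (5.76 ± 0.23), SNAI2 (5.504 ± 0.291), TWIST2 (3.74 ± 0.28) and SNAI1 (2.57 ± 0.26), all SD with n = 3. ELF3 was thus the highest member per length in control libraries, SNAI2 in CoCl2-tolerant libraries and TWIST2 in low-glucose-tolerant libraries. Ranges of 1 SD either side of the mean overlapped for ZEB1 and TWIST2 in CoCl2-tolerant libraries and for ZEB2 and ZEB1 in low-glucose-tolerant libraries. In control libraries they overlapped for ZEB2 and ZEB1 and for ZEB1 and SNAI2. The order within these pairs is therefore not firm. The place of ZEB2 depends on the length used: its annotated exons span 25058 bases in union against 9583 in the longest transcript, and per kilobase of union exons ZEB2 was the lowest of these 6 in control libraries (2.37, against 2.57 for SNAI1 and 7.81 for ELF3).

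By root mean square difference of log2(CPM + 0.1) over the 9 libraries, each gene centred on its own mean, the protein-coding genes most like each member were taken from all genes of at least 1 CPM in their highest group. The closest match of any member was ZEB1 with IQGAP1, a scaffold protein of the cytoskeleton, at 0.0400, followed by GPD2 (0.0723) and ZNF770 (0.0746). ZEB2 was closest to MAPK6, FAM13B and PCYOX1 (0.0933 to 0.105), SNAI2 to KLF10, KDM3A and NR2F2 (0.0922 to 0.113), and TWIST2 to MDH2, SLC35B1 and UBB (0.0676 to 0.0750). SNAI1 was close to MALT1 (0.112) and FRMD4B (0.113). ELF3 had the least close matches, PALM (0.162), PCDH18 (0.169) and BMP4 (0.173). KDM3A, a histone demethylase gene induced in hypoxia, had 148 CPM in CoCl2-tolerant, 75.1 CPM in low-glucose-tolerant and 73.1 CPM in control libraries. All these points share the same libraries, and likeness over 3 groups is a description only.

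Other EMT-linked factors moved in both directions. Of 13 listed, 9 were tested: 5 rose and 2 fell in low-glucose-tolerant cells against control (34.6% of all genes each way; median log2 fold change 0.78), and 2 rose and 1 fell in CoCl2-tolerant cells (17.9% and 18.2%; median 0.25). Among the 5 rises, SNAI3 is a weak call given below. Of the 2 rises in CoCl2-tolerant cells, 1 was left without CoCl2-tolerant replicate 2 or control replicate 1, and 0 without CoCl2-tolerant replicate 3 or control replicate 2 or 3. HMGA2, a chromatin protein that activates SNAI1 and TWIST1 in other cell types, had 59.8, 73.6 and 72.5 CPM in CoCl2-tolerant libraries and 459, 405 and 323 CPM in low-glucose-tolerant libraries, against 52.3, 52.4 and 50.3 CPM in control libraries. It rose 7.66-fold in low-glucose-tolerant cells (log2 fold change 2.94, SE 0.14, adjusted p = 3.87e-10). Its CoCl2-tolerant rise was small (log2 fold change 0.41, adjusted p = 0.0249), and the adjusted p was 0.0713 to 0.0926 when CoCl2-tolerant replicate 2 or 3 or any control library was left out (log2 fold change 0.36 to 0.42). FOXC2, a forkhead factor of mesenchymal cells, had summed counts of 29 in CoCl2-tolerant, 452 in low-glucose-tolerant and 23 in control libraries, and passed the filter only through the low-glucose-tolerant group (ratio to control 21.9, 95% exact interval 14.4 to 35.0). FOXC1 rose 2.78-fold in low-glucose-tolerant cells (adjusted p = 7.71e-06). KLF8, a repressor of CDH1, fell in both tolerant groups (log2 fold change -1.46, adjusted p = 8.91e-06 in CoCl2-tolerant and -0.99, adjusted p = 4.54e-05 in low-glucose-tolerant cells). The third SNAIL gene, SNAI3, stayed under 1 CPM in the mean of each group, with 0.620 ± 0.266 CPM in CoCl2-tolerant, 0.790 ± 0.128 CPM in low-glucose-tolerant and 0.456 ± 0.030 CPM in control libraries. Its low-glucose-tolerant value (log2 fold change 0.78, adjusted p = 0.0489) had an adjusted p of 0.0537 to 0.12 without CoCl2-tolerant replicate 1, low-glucose-tolerant replicate 2 or 3, or any control library, and of 0.0609 to 0.0916 with no filter, with library totals or with DESeq2.

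Of the other epithelial factors, many were under the filter. Of 20 listed, 10 were tested: 6 rose and 3 fell in low-glucose-tolerant cells against control (34.6% of all genes each way; median log2 fold change 0.56), and 3 rose and 2 fell in CoCl2-tolerant cells (17.9% and 18.2%; median -0.02). The count in CoCl2-tolerant cells was 2 higher and 1 lower without CoCl2-tolerant replicate 1 or 3 or control replicate 3, and 1 higher and 1 lower without control replicate 2. With the stricter filter only 3 of these genes were tested. GRHL3, a paralog of GRHL2, had 1.12, 1.02 and 0.883 CPM in CoCl2-tolerant libraries and 3.74, 6.75 and 6.30 CPM in low-glucose-tolerant libraries, against 0.357, 0.353 and 0.635 CPM in control libraries. It rose 12.5-fold in low-glucose-tolerant cells (log2 fold change 3.63, SE 0.29, adjusted p = 6.17e-08). In CoCl2-tolerant cells the log2 fold change was 1.16 (adjusted p = 0.0172), with an adjusted p of 0.0501 to 0.0717 without CoCl2-tolerant replicate 1 or control replicate 1 or 2 (log2 fold change 1.005 to 1.085). GRHL1 had 0.868 ± 0.085 CPM in CoCl2-tolerant, 0.753 ± 0.120 CPM in low-glucose-tolerant and 0.827 ± 0.183 CPM in control libraries and passed in none of the comparisons. KLF4, a zinc-finger factor of intestinal differentiation, had 8.10 ± 0.44 CPM in CoCl2-tolerant, 20.5 ± 0.7 CPM in low-glucose-tolerant and 5.37 ± 0.35 CPM in control libraries and rose in both tolerant groups (log2 fold change 0.59, adjusted p = 0.00183 in CoCl2-tolerant and 1.94, adjusted p = 4.59e-09 in low-glucose-tolerant cells). OVOL2 had summed counts of 0 in CoCl2-tolerant, 5 in low-glucose-tolerant and 0 in control libraries. The ETS factor EHF had 5 in CoCl2-tolerant, 5 in low-glucose-tolerant and 2 in control libraries, so neither was tested.

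Among 10 listed splicing regulators of EMT other than ESRP1, all were tested. None rose and 4 fell in CoCl2-tolerant cells, where 18.2% of all genes fell, and 2 rose and 5 fell in low-glucose-tolerant cells, where 34.6% of all genes went each way (median log2 fold changes -0.33 in CoCl2-tolerant and -0.28 in low-glucose-tolerant cells). The 4 falls in CoCl2-tolerant cells became 2 without CoCl2-tolerant replicate 2 and 1 when any other CoCl2-tolerant or control library was left out, and the 5 falls in low-glucose-tolerant cells became 3 without low-glucose-tolerant replicate 3. ESRP2, which acts with ESRP1, had 0.477 ± 0.125 CPM in CoCl2-tolerant, 1.76 ± 0.30 CPM in low-glucose-tolerant and 0.718 ± 0.204 CPM in control libraries. Like ESRP1 it rose in low-glucose-tolerant cells (log2 fold change 1.29, SE 0.27, adjusted p = 0.000711), and it was lower in CoCl2-tolerant than in low-glucose-tolerant cells (log2 fold change -1.87, adjusted p = 7.52e-05). QKI, which promotes mesenchymal splicing, had 129 ± 24 CPM in CoCl2-tolerant, 108 ± 24 CPM in low-glucose-tolerant and 154 ± 3 CPM in control libraries. It fell in low-glucose-tolerant cells (log2 fold change -0.51, adjusted p = 0.0116), with an adjusted p of 0.0519 without low-glucose-tolerant replicate 3 (log2 fold change -0.32). MBNL3 rose in low-glucose-tolerant cells (log2 fold change 1.26, adjusted p = 4.66e-05), where its relative MBNL1 fell (-1.003, adjusted p = 2.85e-05).

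Genes for proteins through which these repressors act, and for those that control their stability, were called no more often than all genes in CoCl2-tolerant cells. Of 17 corepressors and chromatin partners, all tested, 4 rose and 2 fell in CoCl2-tolerant cells (17.9% and 18.2% of all genes) and 4 rose and 9 fell in low-glucose-tolerant cells (34.6% each way) against control (median log2 fold changes 0.11 in CoCl2-tolerant and -0.28 in low-glucose-tolerant cells). The CoCl2-tolerant count changed when single libraries were left out. It was 2 higher and 2 lower without CoCl2-tolerant replicate 1, and 2 higher and 1 lower without CoCl2-tolerant replicate 2. It was 1 higher and 0 lower without CoCl2-tolerant replicate 3, and 0 higher and 1 lower when any single control library was left out. Without low-glucose-tolerant replicate 2 it was 7 higher and 4 lower. Over all genes, 4463 to 7965 were called in that comparison with a library left out, against 6459 with all libraries. LOXL2, a lysyl oxidase-like enzyme that stabilises Snail, had 1309, 1151 and 1117 CPM in CoCl2-tolerant libraries and 261, 285 and 290 CPM in low-glucose-tolerant libraries, against 974, 982 and 986 CPM in control libraries. It fell 3.52-fold in low-glucose-tolerant cells (log2 fold change -1.82, SE 0.10, adjusted p = 2.41e-09). The CoCl2-tolerant rise of LOXL2 was small (log2 fold change 0.28, adjusted p = 0.0426), with an adjusted p of 0.0597 to 0.135 when any CoCl2-tolerant or control library was left out and of 0.0944 with no filter. The maintenance DNA methyltransferase gene DNMT1 fell 2.82-fold in low-glucose-tolerant cells (adjusted p = 2.16e-08), and the histone demethylase gene KDM1A, a Snail cofactor, fell 1.89-fold (adjusted p = 7.68e-07). Of 17 regulators of protein turnover, all tested, 3 rose and 2 fell in CoCl2-tolerant cells and 7 rose and 2 fell in low-glucose-tolerant cells against control, 9 of 17 called in the second comparison where 69.2% of all genes were (median log2 fold changes -0.03 in CoCl2-tolerant and 0.18 in low-glucose-tolerant cells). With library totals the low-glucose-tolerant split was 7 higher and 4 lower, and 1 gene was lower when low-glucose-tolerant replicate 3 or any single control library was left out. In CoCl2-tolerant cells 2 rose and 1 fell without CoCl2-tolerant replicate 3, and 4 rose and 4 fell without low-glucose-tolerant replicate 2. FBXL14, a ubiquitin ligase subunit that targets SNAIL and TWIST proteins, had 14.4 ± 2.5 CPM in CoCl2-tolerant, 29.5 ± 4.9 CPM in low-glucose-tolerant and 12.8 ± 0.8 CPM in control libraries and rose in low-glucose-tolerant cells (log2 fold change 1.21, adjusted p = 6.3e-06). MDM2, a ubiquitin ligase for p53 and also for SNAIL proteins, rose in both tolerant groups (log2 fold change 0.66, adjusted p = 0.00913 in CoCl2-tolerant and 0.99, adjusted p = 0.000169 in low-glucose-tolerant cells). RNA levels do not measure protein stability, and no protein was measured here.

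Of 20 upstream signals, 19 were tested: 1 rose and 4 fell in CoCl2-tolerant cells (17.9% and 18.2% of all genes), and 6 rose and 6 fell in low-glucose-tolerant cells against control (34.6% each way; median log2 fold changes -0.10 in CoCl2-tolerant and 0.12 in low-glucose-tolerant cells). The rise in CoCl2-tolerant cells was EPAS1, a hypoxia-inducible factor subunit gene, whose adjusted p of 0.017 became 0.0562 to 0.0591 when any single control library was left out. The falls there became 2 without control replicate 2, and the rises became 2 without low-glucose-tolerant replicate 1 or 2. With library totals the low-glucose-tolerant split was 3 higher and 8 lower. BMP4, a ligand that induces ID genes, had 3.69, 4.17 and 3.99 CPM in CoCl2-tolerant libraries and 1.39, 1.23 and 1.85 CPM in low-glucose-tolerant libraries, against 13.8, 14.6 and 15.5 CPM in control libraries. It fell 3.70-fold in CoCl2-tolerant cells (log2 fold change -1.89, SE 0.15, adjusted p = 3.61e-07) and 9.81-fold in low-glucose-tolerant cells (log2 fold change -3.29, SE 0.16, adjusted p = 5.28e-10). HIF1A, which encodes the oxygen-regulated subunit that cobalt stabilises as a protein, had 295, 435 and 355 CPM in CoCl2-tolerant libraries and 256, 251 and 184 CPM in low-glucose-tolerant libraries, against 752, 653 and 732 CPM in control libraries. Its RNA fell in CoCl2-tolerant cells (log2 fold change -0.98, SE 0.15, adjusted p = 0.000236) and in low-glucose-tolerant cells (-1.63, SE 0.16, adjusted p = 4.16e-07). TGFB3, a ligand of the pathway that induces SNAIL and ZEB genes, fell in low-glucose-tolerant cells (log2 fold change -1.48, adjusted p = 0.000204), as did TGFB2 (-1.09, adjusted p = 7.31e-05), of whose exon bases 26.6% overlap TGFB2-OT1. The receptor gene TGFBR2 had 55.7 ± 1.0 CPM in CoCl2-tolerant, 88.2 ± 12.9 CPM in low-glucose-tolerant and 61.2 ± 1.7 CPM in control libraries and rose in low-glucose-tolerant cells (log2 fold change 0.53, adjusted p = 0.000826).

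**Figure D3:**
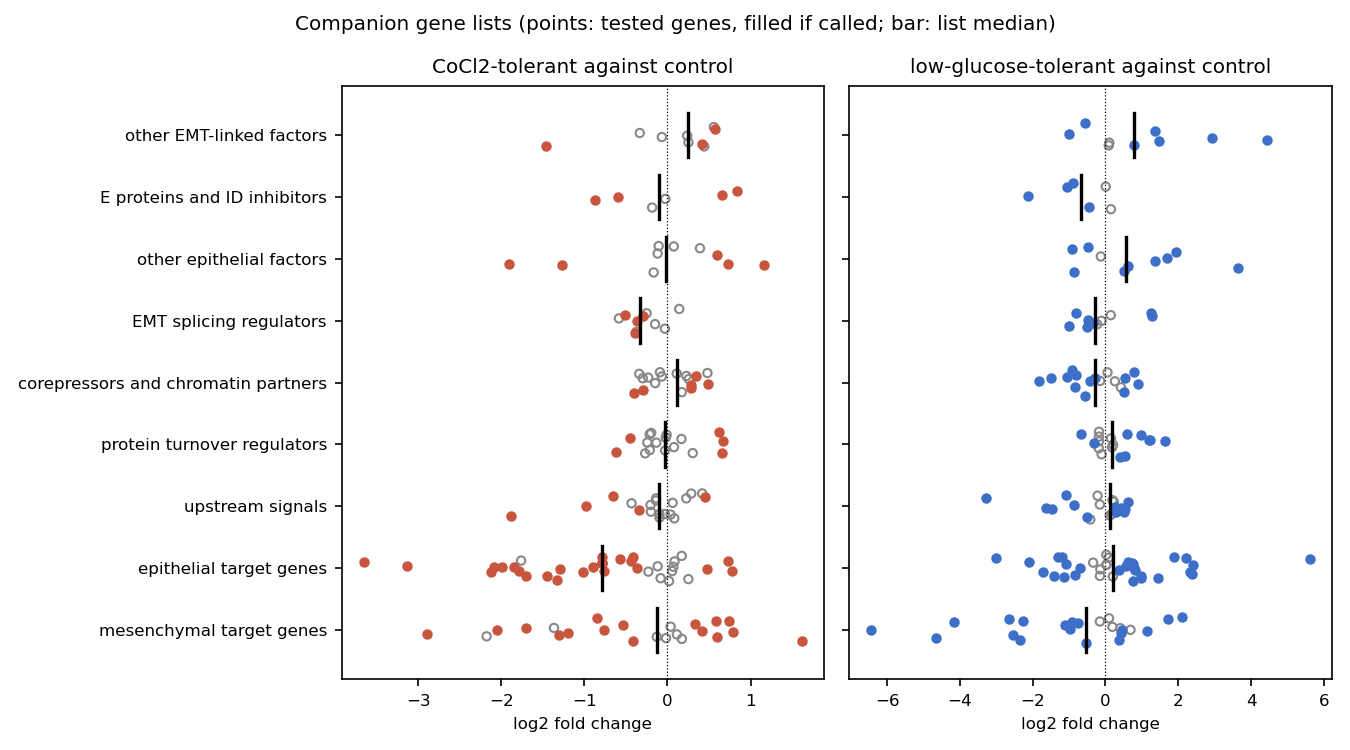
Log2 fold changes (horizontal axis) of the tested genes in the companion lists, for CoCl2-tolerant against control (left) and low-glucose-tolerant against control (right). Points are genes, filled where the adjusted p was under 0.05, and the vertical bars are list medians. The median of the epithelial target genes lies at -0.78 in CoCl2-tolerant and 0.20 in low-glucose-tolerant cells.

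Genes that these factors are known to repress or induce were followed as lists of epithelial and mesenchymal targets. Of 41 epithelial target genes, 35 were tested: 3 rose and 22 fell in CoCl2-tolerant cells against control (17.9% and 18.2% of all genes tested; median log2 fold change -0.78), and 17 rose and 10 fell in low-glucose-tolerant cells (34.6% of all genes each way; median 0.20). Of these, CLDN7, SPINT2 and CDH3 passed the filter only through the low-glucose-tolerant group, and TJP3 only through that group and control. Higher values of CLDN7, SPINT2 and CDH3 in low-glucose-tolerant cells, and lower values of TJP3 in CoCl2-tolerant cells, could therefore hardly go otherwise, and the counts include these genes. Between the tolerant lines, 5 of the 35 were higher and 23 lower in CoCl2-tolerant than in low-glucose-tolerant cells (31.9% and 32.0% of all genes tested). The median log2 fold change was -0.82, against 0.01 over all genes tested. The E-cadherin gene CDH1 had 1.45, 1.26 and 1.52 CPM in CoCl2-tolerant libraries and 7.78, 9.77 and 6.88 CPM in low-glucose-tolerant libraries, against 18.3, 17.8 and 17.4 CPM in control libraries. It was called lower in CoCl2-tolerant cells than in control, with means of 1.41 ± 0.13 and 17.8 ± 0.5 CPM (SD, n = 3 each). CDH1 was 2.19-fold lower in low-glucose-tolerant cells than in control (log2 fold change -1.13, SE 0.14, adjusted p = 5.15e-06). It was 5.78-fold lower in CoCl2-tolerant than in low-glucose-tolerant cells (log2 fold change -2.53, SE 0.17, adjusted p = 1.58e-08). Whether the members' changes bear on CDH1 was not tested. EPCAM, an epithelial adhesion molecule, had 19.8, 21.7 and 23.8 CPM in CoCl2-tolerant libraries and 67.7, 39.8 and 59.7 CPM in low-glucose-tolerant libraries, against 54.3, 51.8 and 58.0 CPM in control libraries. It fell in CoCl2-tolerant cells (log2 fold change -1.33, SE 0.16, adjusted p = 2.95e-05) and did not pass in low-glucose-tolerant cells (0.03, SE 0.16, adjusted p = 0.889).

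Some other epithelial targets moved in opposite directions in the tolerant lines. The tight junction gene CLDN3 fell in CoCl2-tolerant cells (log2 fold change -0.79, adjusted p = 0.00212) and rose in low-glucose-tolerant cells (1.89, adjusted p = 5.87e-08). ERBB3, a receptor of the EGF receptor family, likewise fell in CoCl2-tolerant cells (-2.13, adjusted p = 1.98e-06) and rose in low-glucose-tolerant cells (0.74, adjusted p = 0.00129). The keratin gene KRT18 had 98.6 ± 9.2 CPM in CoCl2-tolerant, 572 ± 110 CPM in low-glucose-tolerant and 107 ± 3.6 CPM in control libraries and rose 5.34-fold in low-glucose-tolerant cells (adjusted p = 2.14e-09). Of its exon bases, 16.3% overlap KRT8 on the opposite strand, and keratin pseudogenes can take some of its reads. CD24, a surface glycoprotein, went against the list in low-glucose-tolerant cells, with 665 ± 96 CPM in CoCl2-tolerant, 169 ± 14 CPM in low-glucose-tolerant and 1349 ± 22 CPM in control libraries, an 8.005-fold fall in low-glucose-tolerant cells (adjusted p = 1.48e-10).

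Of 25 mesenchymal target genes, 23 were tested: 7 rose and 9 fell in CoCl2-tolerant cells against control (17.9% and 18.2% of all genes tested; median log2 fold change -0.13), and 6 rose and 12 fell in low-glucose-tolerant cells (34.6% of all genes each way; median -0.53). COL1A2, COL3A1, MMP2 and MMP9 did not reach the level of the filter in all libraries of each group. VIM, the intermediate filament gene vimentin, had 1967 ± 112 CPM in CoCl2-tolerant, 2618 ± 379 CPM in low-glucose-tolerant and 1179 ± 65 CPM in control libraries. It rose in both tolerant groups (log2 fold change 0.74, adjusted p = 0.000294 in CoCl2-tolerant and 1.151, adjusted p = 9.82e-07 in low-glucose-tolerant cells), and 24.4% of its exon bases overlap other genes on the opposite strand. CDH2, or N-cadherin, had 304 ± 12 CPM in CoCl2-tolerant, 182 ± 24 CPM in low-glucose-tolerant and 203 ± 4.1 CPM in control libraries. It rose in CoCl2-tolerant cells (log2 fold change 0.58, adjusted p = 0.000979). In low-glucose-tolerant cells its log2 fold change of -0.15 had an adjusted p of 0.219, and of 0.0185 without low-glucose-tolerant replicate 2 (log2 fold change -0.25). FN1, or fibronectin, fell in low-glucose-tolerant cells (log2 fold change -0.91, adjusted p = 0.000754). In CoCl2-tolerant cells it was higher than in control (log2 fold change 0.60, adjusted p = 0.0257), with an adjusted p of 0.0552 to 0.0759 without CoCl2-tolerant replicate 1 or 2 or any control library (log2 fold change 0.51 to 0.60). COL1A1, which encodes a collagen I chain, had 250 ± 17 CPM in CoCl2-tolerant, 21.5 ± 1.9 CPM in low-glucose-tolerant and 1855 ± 27 CPM in control libraries. Its log2 fold change against control was -2.89 in CoCl2-tolerant (adjusted p = 5.97e-10) and -6.43 in low-glucose-tolerant cells (adjusted p = 4.44e-13). LOX, a collagen cross-linking enzyme, rose in CoCl2-tolerant cells (log2 fold change 1.62, adjusted p = 2.53e-07).

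**Figure D4:**
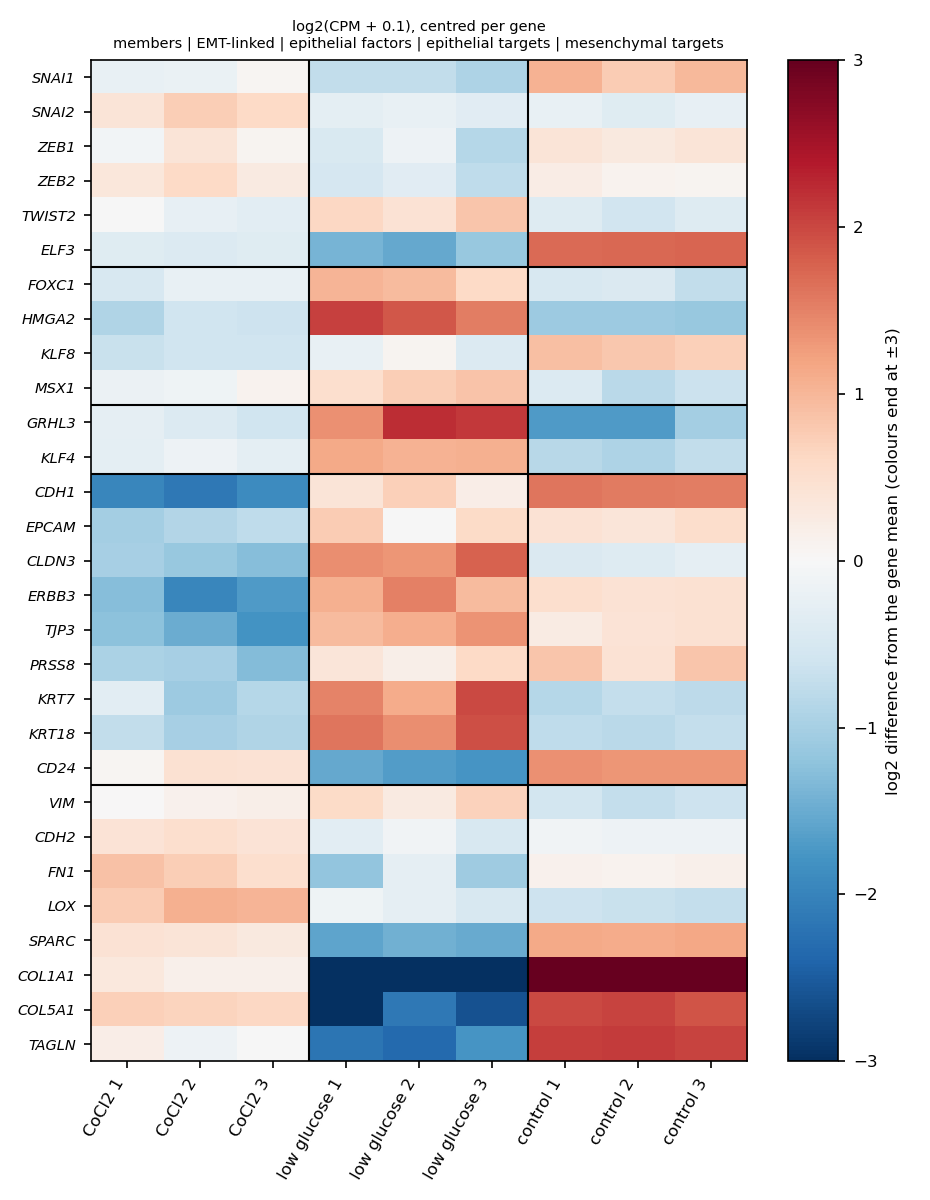
Heat map of log2(CPM + 0.1), centred on each gene's mean over the 9 libraries, for the 6 members with more than a few counts in every group and for genes of 4 companion lists. Columns are libraries (CoCl2-tolerant, low-glucose-tolerant, control), rows are genes in blocks, and the colour scale ends at 3 log2 units either side of 0. SNAI1 and ELF3 are highest in control, SNAI2 in CoCl2-tolerant and TWIST2 in low-glucose-tolerant libraries, and CDH1 is lowest in CoCl2-tolerant libraries.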

How the data were processed

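RNA sequencing was performed on 9 libraries, 3 per group. Per the labels' protocols, RNA was extracted with TRIzol, and mRNA was fragmented and reverse-transcribed before amplification and NovaSeq sequencing. The deposited files hold raw counts per gene that the authors made with featureCounts on GRCh38, per the submitters' processing notes, which also name DESeq2. No aligner, annotation release, tool version or strand rule is given in the sources used here. Values were checked to be whole numbers with differing totals.

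Of 36018 gene identifiers, 35938 matched a symbol, and positions came from GENCODE release 29. Counts were analysed in edgeR 4.0.16 (R 4.3.3): filterByExpr by group (minimum count 10, 17902 genes), TMM scaling (factors 0.922 to 1.04), and a quasi-likelihood F test over all 9 libraries with group means and no covariate (biological coefficient of variation 12.6%), with Benjamini-Hochberg adjustment within each comparison and calls under 0.05. CPM use the library total times the TMM factor. Ratios of summed counts carry exact 95% intervals, which cover counting error only. Tables and figures used Python 3.11.15, pandas 2.3.3, scipy 1.17.1 and matplotlib 3.10.9.

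The members and companion lists were chosen with earlier results of these data known. Lists are given as counts and medians, with no set test. Named genes are the members, 21 genes fixed by name, for every list and comparison up to 4 called genes of the largest change (1 CPM or more in the higher group), and the 3 genes most like each member; a selection of these appears in the text, and some are not reported here. Simulated counts were used to test the scripts. No replicate pair agreed within counting error (chi-squared per degree of freedom from 2.18 in control to 66.7 in low-glucose-tolerant pairs). Alternatives were DESeq2 1.42.0, other scalings and filters, a fit restricted to the groups compared, a replicate block and each library left out. The brefeldin A line named in the series was not analysed here.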

Additional observations from a re-analysis of the deposited data

How the results depend on the processing

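The counts of genes called and of members called stayed within 1.5 times their main values in each comparison and alternative run. With each library left out in turn, 4463 to 7965 genes were called in CoCl2-tolerant cells against control, 11373 to 12903 in low-glucose-tolerant cells against control and 10476 to 11836 between the tolerant lines, with 3 to 4, 6 and 7 of the 7 tested members called in that order. The replicate numbers did not pair the libraries: residuals of libraries with the same number correlated at -0.260 to 0.124 between groups, and those with different numbers at -0.242 to 0.205. With the replicate block, 6091, 12118 and 11136 genes and 3, 6 and 7 members were called. It ended the calls of PTBP1, KDM1A and LOXL2 in CoCl2-tolerant cells and of SNAI3 and SNAI3-AS1 in low-glucose-tolerant cells (adjusted p of 0.0575 to 0.0838), added TGFB2 in CoCl2-tolerant cells (adjusted p = 0.0472) and changed no other call among the named genes. Some list counts in CoCl2-tolerant cells moved by over 1.5 times: the corepressors had 2 higher and 1 lower with the block and 7 higher and 5 lower in a fit of only these groups, where the turnover regulators had 4 and 4, the upstream signals 2 and 5 and the other epithelial factors 3 and 1. In low-glucose-tolerant cells the turnover regulators had 1 lower with the block or no filter, and the stricter filter left 2 higher and 2 lower of the other EMT-linked factors, 1 and 2 of the other epithelial factors, 1 and 5 of the splicing regulators and 6 and 4 of the turnover regulators. With that filter 1 of the other epithelial factors was higher and 0 lower in CoCl2-tolerant cells. Scaling by library totals moved the median log2 fold change of all genes in low-glucose-tolerant cells to -0.11, against -0.01 with TMM scaling, and moved 3 of 27 mean levels of members (SNAI2 in low-glucose-tolerant, ELF3 in CoCl2-tolerant and control libraries) by more than 1 SD.

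Signs changed for 17 log2 fold changes, none of them called. In low-glucose-tolerant cells against control, the changed values were -0.0742 (library totals) and -0.0713 (stricter filter) for EPCAM, -0.0938 (library totals), -0.0038 (fit of only these groups) and -0.0905 (stricter filter) for TCF3, -0.0166 (library totals) and -0.0536 (replicate block) for MMP9, and 0.0181 (no filter) for SNAI2. Between the tolerant lines they were 0.0552 (library totals) and 0.0494 (stricter filter) for RBM47 and -0.0152 (no filter) for TCF4. With a library left out, the range in CoCl2-tolerant cells against control was -0.989 to 1.002 for ESRP1, -0.172 to 0.231 for KRT7, -0.0706 to 0.0542 for ID1, -0.0137 to 0.345 for SRSF1 and -0.103 to 0.190 for GRHL1. In low-glucose-tolerant cells it was -0.0541 to 0.0253 for SNAI2, -0.128 to 0.228 for EPCAM, -0.0171 to 0.0577 for TCF3, -0.0271 to 0.243 for RBFOX2, -0.174 to 0.0351 for PSMD14, -0.0410 to 0.352 for ID3 and -0.745 to 0.451 for MMP9. Between the tolerant lines it was -0.199 to 0.175 for TCF4, -0.152 to 0.0502 for RBM47, -0.0790 to 0.318 for ZEB1-AS1, -0.145 to 0.187 for ATM and -0.271 to 0.0288 for TCF12. The cause was not tested. Depth limits TWIST1, OVOL1 and, outside low-glucose-tolerant cells, ESRP1 to a few counts.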
